A study of Mus musculus with 6 samples.

Results

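Solute carriers are the largest group of membrane transport proteins, and they were described here in regulatory T cells (Treg) sorted from the mouse colon and from the lymph node that drains the gut. A gene was taken as a member if the platform annotation gave it a symbol that starts with Slc and a digit, or with Slco, and if at least 1 of its probes was detected on at least 3 of the 6 arrays. A probe counts as detected on an array where the deposited detection fraction, the share of negative control beads dimmer than the probe, is above 0.95. By this rule 164 genes with 214 detected probes were members, of 370 such genes with 679 probes on the array and of 19057 named genes in all. The members were chosen by these detection fractions, so that they are detected is a description and not a result. Just inside the threshold lay Slc39a8, Slc37a1, Slc35d1 and Slc27a6, whose lowest fractions among their 3 best arrays were 0.956, 0.958, 0.959 and 0.96, and just outside it Slc12a7, Slc33a1, Slc2a9 and Slc22a19, at 0.949, 0.948, 0.943 and 0.94.

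A solute carrier moves a small molecule or ion through a membrane without burning ATP itself: it lets the solute run down its gradient, or couples it to a gradient of sodium, protons or another solute. Family numbers group carriers by sequence, and the families divide the work by substrate and by membrane, with amino acid and sugar carriers at the cell surface, metal carriers on the surface and on vesicles, nucleotide sugar carriers in the Golgi apparatus and the Slc25 family in mitochondria. Activated T cells are known to raise carriers of amino acids, glucose and iron at their surface, and Treg are known to depend on lipid and mitochondrial metabolism as well. Treg are CD4 T cells that carry the transcription factor Foxp3 and restrain immune responses, and in the colon they live among epithelial and stromal cells and the products of gut microbes.

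The samples were 3 arrays of Treg from the colon lamina propria, the tissue layer under the epithelium (cLP Treg), and 3 arrays of Treg from mesenteric lymph nodes (MLN Treg). Both groups were sorted as CD4 cells with T cell receptor (TCRβ+) and Foxp3, from C57BL/6 mice of the genotype labelled Foxp3gfp, a green fluorescent reporter of Foxp3, and kept in the steady state with no treatment. The labels do not say how old the mice were, nor whether each array had an animal of its own; the p-values below therefore reflect how far these 6 samples scatter, which may be technical scatter. RNA was amplified over successive rounds, labelled with biotin and measured as log2 intensity on Illumina bead arrays. Between 34.29% and 35.43% of probes were detected on the cLP arrays and between 32.68% and 35.15% on the MLN arrays, and signal over background, the median of detected over undetected probes, was 2.61 to 3.18 in cLP Treg, against 3.33 to 4.10 in MLN Treg. The number of arrays limits the precision.

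Among the markers of Treg, Foxp3 was bright in both groups and Cd4 was dim. All 7 such genes on the array were detected, and Foxp3 itself had a mean log2 intensity of 13.58 in cLP Treg, against 13.59 in MLN Treg. Cd4, by which the cells were also sorted, had means of 6.78 in cLP Treg, against 6.85 in MLN Treg. The T cell genes Cd3e and Cd3g had 12.86 and 11.95 in cLP Treg, against 13.46 and 12.18 in MLN Treg. None of these 4 passed the threshold described below. Ikzf2 and Ctla4, also high in Treg, were higher in cLP Treg by 2.22 and 1.05, and the interleukin 2 receptor chain Il2ra fell by 1.67 (adjusted p = 0.0249, 0.00679 and 0.0112). Markers of other cells moved between the groups in part. Of 8 stromal and endothelial markers 4 were detected, and 2 of these were higher in cLP Treg, smooth muscle actin Acta2 by at least 33.7-fold and the collagen Col3a1 by at least 5.95-fold; the mean level of the 4 was 9.02 to 9.62 in cLP Treg, against 7.54 to 7.91 in MLN Treg. Of 7 mast and innate lymphoid markers Kit and Hdc were detected, both higher in cLP Treg, with a mean level of 8.39 to 10.1 in cLP Treg, against 5.11 to 7.29 in MLN Treg. The plasma cell gene Jchain was at least 2.13-fold higher, and 2 of 12 macrophage, dendritic and granulocyte markers were detected, with a mean level of 5.32 to 5.72 in cLP Treg, against 5.97 to 6.75 in MLN Treg. Of the B cell markers on the array both were detected, and Cd79b was lower, with means of 6.0 in cLP Treg, against 8.69 in MLN Treg (adjusted p = 0.000861); the mean level of both was 5.64 to 5.79 in cLP Treg, against 7.40 to 8.22 in MLN Treg. Of 4 markers of cytotoxic and CD8 T cells 2 were detected, both brighter than Cd4. Prf1 had means of 14.81 in cLP Treg, against 14.04 in MLN Treg, higher by 0.77 (adjusted p = 0.0273). Cd8b1 had means of 11.50 in cLP Treg, against 12.28 in MLN Treg (adjusted p = 0.061). Of 10 markers of colon epithelium 3 were detected and 0 passed the threshold, with a mean level of 6.15 to 8.44 in cLP Treg, against 6.78 to 7.26 in MLN Treg. The part of these cells in the results that follow was not tested, and in bulk samples fewer cells of a type and less RNA per cell cannot be told apart.

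Solute carriers as a whole moved in both directions, and about as often as other genes. Of the 164 members, 22 (13.4%) were higher in cLP Treg, 30 (18.3%) were lower and 112 did not pass the threshold (set at 0.05 for p-values adjusted over all 9157 genes tested, from limma, a linear model that shares the estimate of spread between genes). Among all genes tested 12.1% were higher and 20.4% lower, 32.5% in all, against 31.7% of the members. The median log2 difference (cLP Treg minus MLN Treg) was -0.2 over the members and -0.21 over all genes tested. The groups did not overlap in 78 members, with cLP Treg on top in 29 of them, beside 47% of all genes tested. Of the called members 19 rose and 26 fell by at least 2-fold, and 74 members had an unadjusted p under 0.05. Of all 9157 genes tested, 951 were called and rose by at least 2-fold, 1542 were called and fell so far, and 3971 had an unadjusted p under 0.05. The split depends on the scaling: 16 members were higher and 47 lower with median scaling (arrays set to one median, not to one distribution), 18 and 41 in the authors' deposited log2 values, and 29 and 20 with the median difference of all genes set to 0, so that the share of calls that were higher, 42.3%, became 25.4%, 30.5% and 59.2%. The median of all genes was -0.51 with median scaling and -0.3 in the deposited values, and the differences of single carriers are to be read against it. In the deposited values 26 of the 52 called members differed by less than the value given here divided by 1.5. Without MLN sample 1, and likewise without MLN sample 2, 17 members were higher and 19 lower.

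The 108 members whose reported probe was detected on all 6 arrays could move either way: 17 of them were higher and 15 lower in cLP Treg, 29.6% in all, beside 30.5% of all genes so detected. The other 56 include 6 detected on all cLP arrays and no MLN array and 9 detected on all MLN arrays and no cLP array. A gene that entered through 1 group alone could differ in 1 direction only, so the counts of such genes support nothing. Of the 6, Slco2b1, Slc5a3 and Slc1a1 were higher, and Slc16a3, Slc35d1 and Slc18a1 did not pass the threshold. All 9 of the others were lower: Slc12a8, Slc16a5, Slc16a13, Slc26a11, Slc27a3, Slc30a9, Slc35a5, Slc37a1 and Slc39a3. For such genes a fold is a bound, written as "at least", of the brighter group's mean over a limit for the dimmer arrays. On each such array the limit is the lowest signal of any detected probe, or the gene's own signal where that is higher. The detection rule may also favour 1 direction in the remaining members. Of 10 detected on more cLP than MLN arrays 2 were higher and 0 lower. Of 31 detected on as many or more MLN arrays 0 were higher and 6 lower.

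**Figure D1:**
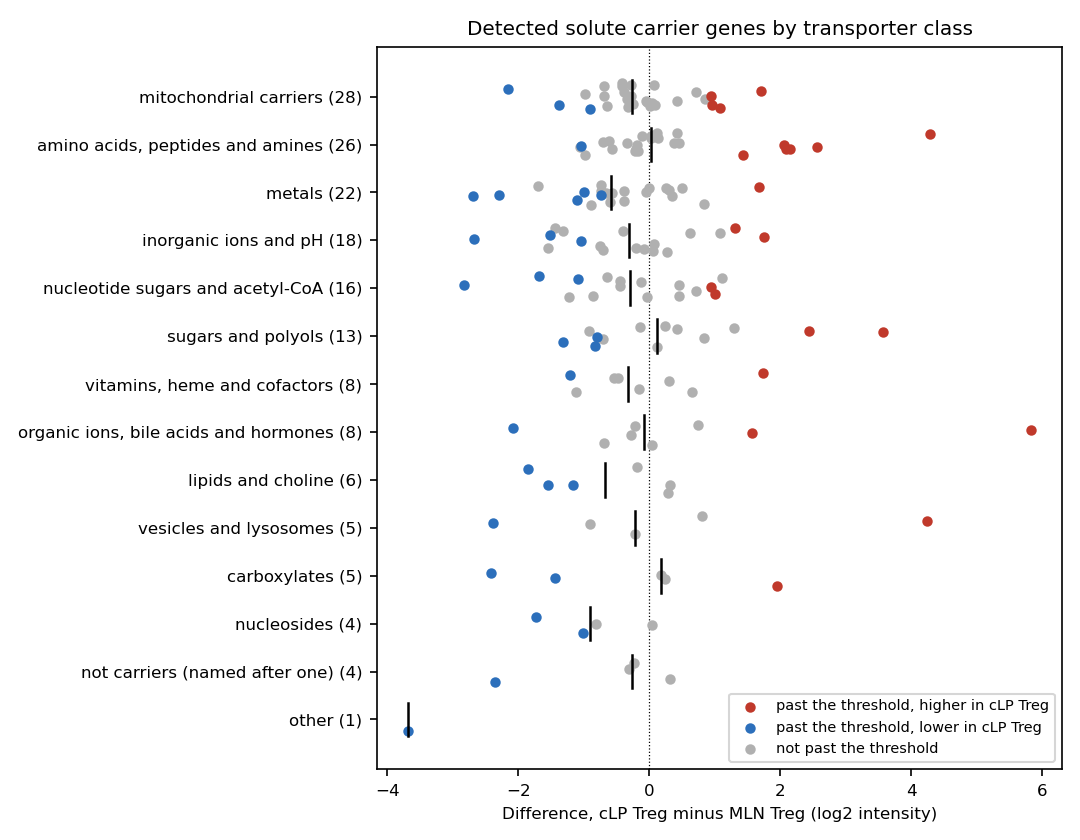
Difference in log2 intensity, cLP Treg minus MLN Treg, of each detected solute carrier gene, 1 point per gene, by transporter class with the number of genes in brackets. Colours mark genes past the threshold and vertical bars the class medians. Amino acid carriers past the threshold lie mostly to the right (6 higher, 1 lower), and those of metals mostly to the left (1 higher, 5 lower). Among them Slc1a1 was detected on cLP arrays alone, and Slc39a3 and Slc30a9 on MLN arrays alone.

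The 5 widest differences were those of Slco2b1, Slc15a3, Slc66a2, Slc14a1 and Slc5a3. Slco2b1 (probe ILMN_2619707, on chromosome 7), a surface carrier of steroid sulfates and many drugs, had log2 intensities of 10.77, 10.13 and 10.95 in cLP Treg, against 4.69, 4.95 and 4.73 in MLN Treg. No MLN array detected it, and it was at least 33.3-fold higher in cLP Treg (difference 5.83 ± 0.27, standard error; limma, adjusted p = 6.17e-05). Slc15a3 (ILMN_2987709, chromosome 19), which carries histidine and peptides, bacterial muropeptides among them, out of endosomes and lysosomes, had 10.56, 10.65 and 11.14 in cLP Treg, against 6.00, 7.18 and 6.29 in MLN Treg. All 6 arrays detected it and the groups lay far apart, a 19.6-fold rise (4.29 ± 0.35; adjusted p = 0.000269).

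Slc66a2 (ILMN_2592266, chromosome 18), a member of the PQ-loop family of vesicle and lysosome membranes, had 13.29, 12.85 and 13.12 in cLP Treg, against 8.86, 8.90 and 8.75 in MLN Treg. Its spread within each group was small, and it was 19-fold higher in cLP Treg (4.25 ± 0.22; adjusted p = 7.62e-05), and at least 13.5-fold higher by a second probe, which no MLN array detected. Slc5a3 (ILMN_1233078, chromosome 16), the sodium-coupled carrier that takes up the osmolyte myo-inositol, had 9.33, 9.35 and 6.24 in cLP Treg, against 4.71, 4.70 and 4.79 in MLN Treg. Sample 3 of cLP Treg stood well below the other two, no MLN array detected the gene, and it was at least 6.69-fold higher (3.57 ± 0.78; adjusted p = 0.0118). Its call was lost without the detection filter (adjusted p = 0.0548).

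In the opposite direction Slc14a1 (ILMN_1235006, chromosome 18), the urea channel of red cells and kidney, had 5.12, 4.63 and 6.95 in cLP Treg, against 9.05, 9.83 and 8.86 in MLN Treg. Only 1 cLP array detected it, so that the other 2 values lie at background, and it fell by 3.68 ± 0.59 on the log2 scale (adjusted p = 0.00357), with a second probe also lower at -1.02. Its difference was -2.39 without background correction and -2.35 for the mean of its probes. Of 3 markers of red cells, in which Slc14a1 is known, 0 were detected. In all, 19 members passed the threshold with a difference of at least 4-fold, 9 higher and 10 lower. The share of all genes that did so was not counted, so the number does not show whether wide differences are frequent among solute carriers. Among the 19, Slco2b1 and Slc5a3 were detected on cLP arrays alone, and Slc12a8, Slc16a5 and Slc35a5 on MLN arrays alone.

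**Figure D2:**
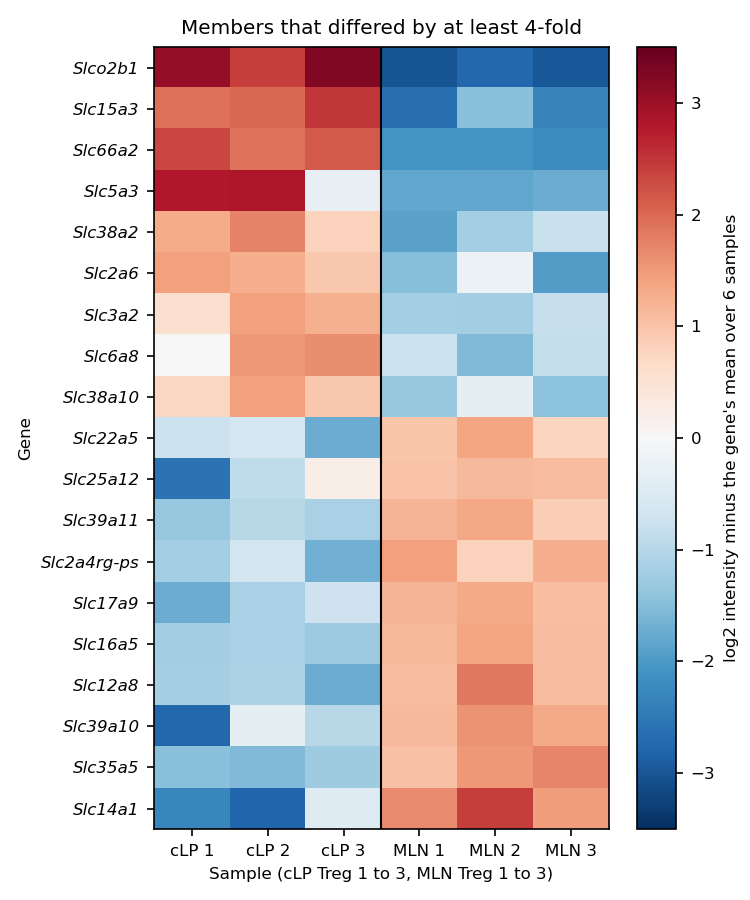
Log2 intensity of each gene in each sample minus the gene's mean over the 6 samples, for the 19 members that passed the threshold with a difference of at least 4-fold. Columns are cLP samples 1 to 3 and then MLN samples 1 to 3. Slc5a3 and Slc25a12 in cLP sample 3 are the cells whose sign goes against the rest of their group, and Slc6a8 in cLP sample 1 lies at its gene's mean.

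Promoter windows were searched for short motifs of factors that respond to activation, amino acid shortage, oxidants, growth and hypoxia. RefSeq promoter windows (GRCm38.p6, 250 bases before to 50 after a start) were at hand for 122 members, 169 windows in all. The AP-1 motif TGANTCA, read on both strands, was in 3 of 18 windows of genes higher in cLP Treg (16.7%), in 0 of 32 windows of genes lower in cLP Treg, in 2.52% of windows of members that did not pass and in 7.81% of all 32851 windows. The E-box CACGTG was in 0 of 18 windows of higher genes, 12.5% of those of lower genes, 14.3% of those of the others and 7.15% of all. The cyclic AMP response motif TGACGTCA was in 5.56%, 0%, 0.84% and 1.79% in the same order, and TGATGNAA, bound by ATF4 with C/EBP in amino acid shortage, in 5.56%, 3.12%, 2.52% and 3.97%. The antioxidant motif TGACNNNGC was in 16.7%, 18.8%, 16.8% and 12.4%, and the hypoxia core ACGTG, which every E-box also holds, in 27.8%, 21.9%, 26.9% and 19.6%. A match says only that these letters stand in the window. The windows with an AP-1 motif or the cyclic AMP motif in higher genes, and that of Slc35a5, a lower gene with a pair of E-boxes, are shown as 280 bases, 250 before and 30 after the start, 5′ to 3′ on the gene's strand, with matches to the AP-1, cyclic AMP and ATF4 motifs, or in Slc35a5 to the E-box, in capitals; matches to the other motifs are in lower case.
Slco2b1: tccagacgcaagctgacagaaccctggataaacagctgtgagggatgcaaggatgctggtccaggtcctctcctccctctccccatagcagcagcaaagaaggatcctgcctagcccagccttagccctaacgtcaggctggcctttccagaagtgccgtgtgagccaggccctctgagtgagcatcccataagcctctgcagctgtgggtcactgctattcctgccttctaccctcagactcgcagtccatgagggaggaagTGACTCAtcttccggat
Slc38a10: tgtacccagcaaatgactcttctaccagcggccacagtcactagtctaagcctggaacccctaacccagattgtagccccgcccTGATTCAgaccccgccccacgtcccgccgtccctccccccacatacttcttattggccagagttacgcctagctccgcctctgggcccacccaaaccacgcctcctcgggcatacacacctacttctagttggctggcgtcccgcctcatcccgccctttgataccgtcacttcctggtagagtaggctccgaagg
Slc9a9: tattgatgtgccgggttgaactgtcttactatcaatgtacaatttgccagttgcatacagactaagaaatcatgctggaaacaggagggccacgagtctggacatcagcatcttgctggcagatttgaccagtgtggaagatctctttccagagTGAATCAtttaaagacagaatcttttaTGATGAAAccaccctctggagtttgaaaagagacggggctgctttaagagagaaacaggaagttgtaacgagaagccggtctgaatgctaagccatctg
Slc25a25: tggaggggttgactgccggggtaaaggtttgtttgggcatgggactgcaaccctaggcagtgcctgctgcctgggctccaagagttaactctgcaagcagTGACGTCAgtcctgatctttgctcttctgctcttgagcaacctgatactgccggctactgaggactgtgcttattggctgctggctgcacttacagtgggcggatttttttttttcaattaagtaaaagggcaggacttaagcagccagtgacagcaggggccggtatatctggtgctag
Slc35a5: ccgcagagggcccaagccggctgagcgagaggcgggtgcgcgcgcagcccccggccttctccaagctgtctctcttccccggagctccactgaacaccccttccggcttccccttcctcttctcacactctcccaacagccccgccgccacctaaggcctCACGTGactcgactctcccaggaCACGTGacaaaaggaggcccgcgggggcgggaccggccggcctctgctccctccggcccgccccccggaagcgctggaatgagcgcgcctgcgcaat
They lie at chr7:99711311-99711590 (minus strand) for Slco2b1, chr11:120151322-120151601 (minus) for Slc38a10, chr9:94669642-94669921 (plus) for Slc9a9, chr2:32424037-32424316 (minus) for Slc25a25 and chr16:45158644-45158923 (minus) for Slc35a5. The capitals are TGACTCA in Slco2b1, TGATTCA in Slc38a10, TGAATCA and then TGATGAAA in Slc9a9, TGACGTCA in Slc25a25 and CACGTG in both places in Slc35a5.

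Carriers of amino acids, peptides and amines gave 6 rises and 1 fall. Of 63 on the array 26 were detected, and 19 of these did not pass the threshold, with a class median of 0.03. In the class 6 (23.1%) were higher in cLP Treg and 1 (3.85%) was lower, beside 12.1% and 20.4% of all genes. Slc1a1, among the rises, was detected on cLP arrays alone and so had to be higher. With median scaling there were 6 rises and 4 falls, and the other settings that tested all 26 gave 5 to 6 rises and 0 to 2 falls. A separate fit of only probes detected on all 6 arrays, with p-values adjusted anew, gave 4 rises and 1 fall among 17 members. Slc7a4, the fall of the main fit, is not among these 17, so that fall is another gene. Slc38a2 (ILMN_1244123, chromosome 15), the sodium-coupled carrier of glutamine and alanine that cells raise when amino acids run short, had 12.96, 13.40 and 12.49 in cLP Treg, against 9.81, 10.49 and 10.88 in MLN Treg. The groups did not overlap and this probe was 5.89-fold higher in cLP Treg (2.56 ± 0.35; adjusted p = 0.00206). Its other detected probes had the same sign but not that size, at 0.53 (adjusted p = 0.173) and 0.81 (adjusted p = 0.0808), and the mean of the 3 probes differed by 1.3 (adjusted p = 0.0119).

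Slc3a2 (ILMN_2595359, chromosome 19) encodes the CD98 heavy chain, the partner that brings the large neutral amino acid carriers to the surface. It had 11.73, 12.61 and 12.41 in cLP Treg, against 9.99, 9.97 and 10.36 in MLN Treg. Every cLP value lay more than the whole MLN range above the MLN values, a 4.43-fold rise (2.15 ± 0.29; adjusted p = 0.00184). Of its light chains, Slc7a6, which exchanges arginine for neutral amino acids, averaged 8.49 ± 0.11 in cLP Treg, against 9.11 ± 0.11 in MLN Treg (SD, n = 3 each; -0.62 ± 0.20; limma, adjusted p = 0.0516), and it passed the threshold, lower, with median scaling, in the deposited values and under 5 other settings. Slc7a11, the cystine carrier, stood at 5.70 in cLP Treg and 5.62 in MLN Treg, close to background, and did not differ beyond its spread (adjusted p = 0.824). Slc7a5, the best known partner of Slc3a2 in activated T cells, is not analysed here.

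Slc6a8 (ILMN_2605212, X chromosome), the creatine carrier, had 6.47, 7.99 and 8.09 in cLP Treg, against 5.72, 4.93 and 5.64 in MLN Treg, where 2 of 3 arrays detected it. It was higher in cLP Treg by 2.09 ± 0.47 (adjusted p = 0.013), 1.09 in the deposited values, and its call was lost without the detection filter and without MLN sample 2 (1.83; adjusted p = 0.0512). Slc38a10, a relative of Slc38a2, was higher by 2.06 ± 0.35 (adjusted p = 0.00455), but its other detected probe differed by -0.38 (adjusted p = 0.661) and the call was lost for the mean of the 2 probes (0.84; adjusted p = 0.0983). Slc1a1, a carrier of glutamate and cysteine, was at least 2.09-fold higher, and no MLN array detected it. Slc7a4 was the 1 fall, by 1.04 (adjusted p = 0.0451), a call lost under 11 of 15 alternatives, among them the removal of any 1 array but cLP sample 2 (adjusted p between 0.081 and 0.157). The other 19 ranged from -1.06 for the taurine carrier Slc6a6 to 0.45 for Slc38a9, a lysosomal sensor of arginine.

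**Figure D3:**
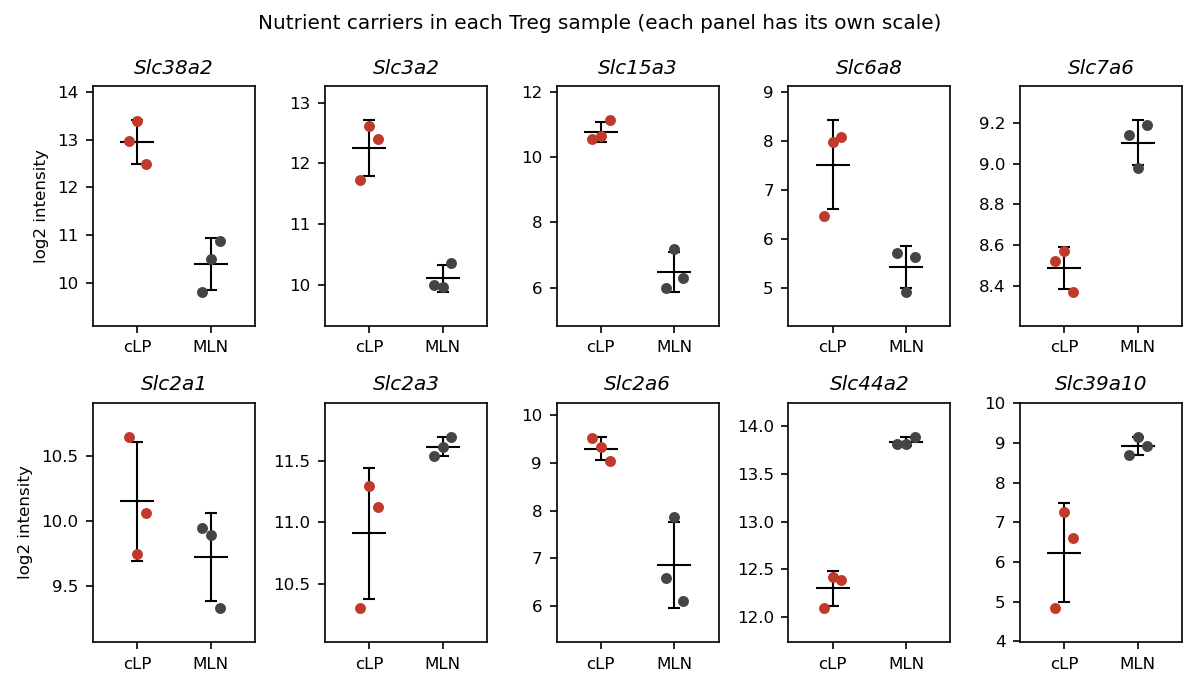
Log2 intensity of 10 nutrient carriers in each sample, cLP Treg left of MLN Treg, with the mean as a bar and whiskers of 1 SD (n = 3 each); each panel has its own scale. The groups are apart in Slc38a2, Slc3a2, Slc15a3, Slc6a8, Slc2a6, Slc44a2 and Slc39a10, which passed the threshold, and in Slc7a6 and Slc2a3, which did not, and they overlap in Slc2a1.

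Glucose carriers of the surface did not pass the threshold, while a less studied relative rose. Slc2a1 (GLUT1), the glucose carrier that T cells raise on activation, had 10.65, 9.75 and 10.06 in cLP Treg, against 9.95, 9.89 and 9.33 in MLN Treg. The groups overlapped (0.43 ± 0.31; adjusted p = 0.33), and the sign turned with median scaling (-0.06). Slc2a3 (GLUT3), the high-affinity carrier of lymphocytes and neurons, had 10.30, 11.30 and 11.13 in cLP Treg, against 11.54, 11.62 and 11.70 in MLN Treg; all cLP values were lower, yet the difference did not pass (-0.71 ± 0.30; adjusted p = 0.109), although it did once median scaling was used (-1.15; adjusted p = 0.0211), and likewise for the deposited values (-1.02; adjusted p = 0.033).

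Slc2a6 (GLUT6, ILMN_2618918, chromosome 2), a member of the glucose carrier family found on lysosomes, had 9.52, 9.34 and 9.03 in cLP Treg, against 6.60, 7.86 and 6.12 in MLN Treg. It was 5.41-fold higher, with MLN sample 2 the highest of its group (2.44 ± 0.44; adjusted p = 0.00548). Of 13 detected sugar and polyol carriers of 28 on the array, Slc5a3 and Slc2a6 were higher and 3 were lower, with a class median of 0.12. These were 15.4% and 23.1% of the class, near the 12.1% and 20.4% of all genes. Slc5a3 was detected on cLP arrays alone and Slc37a1 on MLN arrays alone, so each could differ in 1 direction only. The falls were Slc37a1, of the sugar phosphate exchangers of the endoplasmic reticulum, by 1.32 (at least 1.38-fold; adjusted p = 0.00415), Slc45a4 by 0.82 (adjusted p = 0.0464) and Slc50a1, the only SWEET-type sugar carrier of mammals, by 0.80 (adjusted p = 0.0214). The call of Slc45a4 was lost without any 1 array but MLN sample 3 (adjusted p between 0.0509 and 0.156), and that of Slc50a1 without MLN sample 1 or 2 (0.0836 and 0.0772).

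Carriers of lactate and other monocarboxylates were sparse. Of 19 carboxylate carriers on the array 5 were detected, with 1 higher and 2 lower in cLP Treg. So small a class cannot be set against the 12.1% and 20.4% of all genes. Both falls were of genes detected on MLN arrays alone, which had to be lower, so their count supports nothing. Slc16a1 (MCT1), which carries lactate and short-chain fatty acids, was detected on 0 arrays, and Slc16a3 (MCT4), the lactate exporter of glycolytic cells, stood at 5.68 ± 0.10 in cLP Treg, against 5.45 ± 0.15 in MLN Treg (SD, n = 3 each), where no array detected it (limma, adjusted p = 0.429). Slc16a6 (MCT7) had 11.98, 11.08 and 9.50 in cLP Treg, against 8.70, 9.68 and 8.33 in MLN Treg. It was the 1 called member whose groups overlapped (1.95 ± 0.63; adjusted p = 0.0496), and its call was lost under 9 of 15 alternatives, the removal of any 1 array but cLP sample 3 among them (adjusted p between 0.0581 and 0.154). Slc16a5 fell by 2.41 ± 0.21 (at least 3.13-fold; adjusted p = 0.000355) and Slc16a13 by 1.44 ± 0.26 (at least 1.53-fold; adjusted p = 0.00578), and no cLP array detected either.

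Mitochondrial carriers were the class with most members. Of 46 on the array 28 were detected, 4 were higher and 3 lower in cLP Treg, and 21 did not pass the threshold, with a class median of -0.26. This made 25% called, beside 32.5% of all genes, and the counts were 2 and 6 with median scaling and 4 and 6 in the deposited values. Slc25a3 (ILMN_2751046, chromosome 10), which brings phosphate into the matrix for ATP synthesis, had 12.92, 13.20 and 13.16 in cLP Treg, against 11.16, 10.83 and 12.15 in MLN Treg. The cLP values were tight and all above MLN, a 3.28-fold rise (1.71 ± 0.35; adjusted p = 0.00968), with a second probe at 0.94 (adjusted p = 0.0402). Slc25a25, a calcium-regulated exchanger of ATP-magnesium for phosphate, had 9.0, 8.83 and 8.79 in cLP Treg, against 7.81, 7.71 and 7.86 in MLN Treg. Both groups were compact and lay apart (1.08 ± 0.20; adjusted p = 0.0065), and the value was 0.67 with median scaling (adjusted p = 0.0467).

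Slc25a24, which does the same exchange, was higher by 0.95 (adjusted p = 0.0117) and the iron carrier Slc25a28 (mitoferrin 2) by 0.96 (adjusted p = 0.0307), calls lost under 3 and 8 of 15 alternatives, for Slc25a24 without MLN sample 1 (0.0524) and for Slc25a28 without any 1 array but cLP sample 2 (between 0.0539 and 0.101). Among the falls, Slc25a14 (UCP5) had 7.61, 7.34 and 7.92 in cLP Treg, against 8.93, 9.07 and 9.0 in MLN Treg, well apart (-1.38 ± 0.23; adjusted p = 0.00417). Slc25a12, the aspartate-glutamate carrier of the malate-aspartate shuttle, had 5.41, 7.10 and 8.22 in cLP Treg, against 8.99, 9.13 and 9.09 in MLN Treg. Its cLP values spread widely (-2.16 ± 0.63; adjusted p = 0.0333); the difference was -1.43 without cLP sample 1, and the call was lost without cLP sample 2 or any 1 MLN sample (adjusted p between 0.0662 and 0.095). The other fall was Slc25a45, by 0.91 (adjusted p = 0.0301), lost without cLP sample 1 or 2 or MLN sample 2 or 3 (between 0.0647 and 0.107). The ATP-ADP exchanger Slc25a5 had means of 13.50 in cLP Treg, against 13.83 in MLN Treg (-0.33 ± 0.20; adjusted p = 0.245), and the citrate carrier Slc25a1 9.60 and 9.52 (0.09 ± 0.32; adjusted p = 0.866), the sign of which turned under 4 alternatives; neither passed the threshold.

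Metal carriers past the threshold were 1 rise and 5 falls of 22 detected among 31 on the array, all of them zinc carriers. The falls were 22.7% of the class, near the 20.4% of all genes. Slc39a3 and Slc30a9, among the falls, were detected on MLN arrays alone and so had to be lower. Among the 13 detected on all 6 arrays there were 1 rise and 2 falls. Zinc enters the cytosol through the Slc39 (ZIP) family and leaves it through the Slc30 (ZnT) family. Of 13 Slc39 genes on the array 10 were detected, with 1 higher and 4 lower in cLP Treg and a median of -0.69, and 1 higher and 2 lower among the 5 detected on all 6 arrays. Of 10 Slc30 genes 7 were detected, with 0 higher and 1 lower and a median of -0.05. The Slc39 and Slc30 medians were -0.78 and -0.48 with median scaling, -0.28 and -0.37 in the deposited values and -0.49 and 0.16 with the median of all genes set to 0, so that which family lay lower depends on the values used. The class median was -0.58, and the alternatives gave 1 to 2 rises and 2 to 7 falls.

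Slc39a10 (ILMN_2708841, chromosome 1), a surface importer known in mice to keep B cells alive, had 4.84, 7.27 and 6.61 in cLP Treg, against 8.71, 9.16 and 8.92 in MLN Treg. All cLP values were lower and 1 of them was not detected (-2.69 ± 0.57; adjusted p = 0.0105). Slc39a11 (ILMN_2668706, chromosome 11), an importer of intracellular membranes, had 7.44, 7.78 and 7.63 in cLP Treg, against 9.96, 10.12 and 9.62 in MLN Treg. Every array detected it, and it was 4.87-fold lower in cLP Treg, with little spread (-2.29 ± 0.23; adjusted p = 0.000649). Slc39a4 (ILMN_1226293, chromosome 15), the zinc importer of the intestinal epithelium whose loss causes zinc deficiency, went the other way, with 10.23, 11.02 and 11.24 in cLP Treg, against 8.99, 9.11 and 9.35 in MLN Treg. It was 3.21-fold higher (1.68 ± 0.31; adjusted p = 0.00581), and of the 3 epithelial markers detected, the adhesion molecule Epcam had means of 7.2 in cLP Treg, against 7.90 in MLN Treg while keratin Krt8 had 7.89 and 6.28 (adjusted p = 0.0544) and cadherin Cdh1 had 6.53 and 5.91 (adjusted p = 0.552), with 8.42 in cLP sample 3.

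Slc39a13 fell by 1.00 (adjusted p = 0.036), Slc39a3 by 0.73 (at least 1.21-fold, adjusted p = 0.0419) and Slc30a9 by 1.10 (at least 1.63-fold, adjusted p = 0.0158). No cLP array detected Slc39a3 or Slc30a9. All 3 calls were lost without some arrays, that of Slc39a13 without cLP sample 3 or any 1 MLN sample (adjusted p between 0.0557 and 0.121), that of Slc39a3 without any 1 array but cLP sample 2 (between 0.086 and 0.127) and that of Slc30a9 without MLN sample 2 (0.0572). Slc39a6, with Slc39a10 a surface importer of T cells, had means of 9.67 in cLP Treg, against 10.05 in MLN Treg (-0.38 ± 0.37; adjusted p = 0.476), and the exporter Slc30a1 had 8.41 and 8.47 (adjusted p = 0.91). The iron and manganese importer Slc11a2 had 7.83, 7.98 and 5.55 in cLP Treg, against 8.91, 8.39 and 9.16 in MLN Treg (-1.69 ± 0.63; adjusted p = 0.0745), and another probe ran the other way (1.45; adjusted p = 0.0551). The iron exporter Slc40a1 was detected on 0 arrays.

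**Figure D4:**
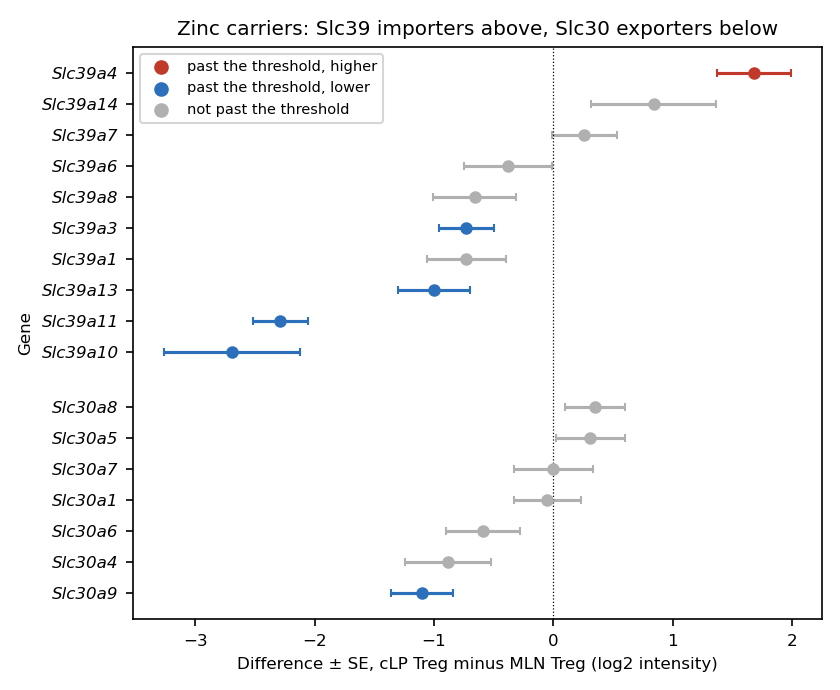
Difference in log2 intensity, cLP Treg minus MLN Treg, of the 10 detected Slc39 importers (upper) and 7 detected Slc30 carriers (lower), points with bars of 1 standard error. Slc39a4 lies highest at 1.68 and Slc39a10 lowest at -2.69.

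Carriers of inorganic ions and pH were called in both directions, 2 higher and 3 lower of 18 detected among 51 on the array, with a class median of -0.3. The falls were 16.7% of the class, beside 20.4% of all genes. Slc12a8 and Slc26a11, among the falls, were detected on MLN arrays alone and so had to be lower. The counts were 1 and 7 with median scaling and 1 and 5 in the deposited values. A separate fit of only probes detected on all 6 arrays, with p-values adjusted anew, gave 2 and 0 among 11 members. Slc9a9, a rise of the main fit, is not among these 11, so the 2 rises are not the same pair. Slc9a9, a sodium-proton exchanger of recycling endosomes, had 7.27, 7.76 and 7.33 in cLP Treg, against 6.03, 5.58 and 5.47 in MLN Treg, where 1 array detected it (1.76 ± 0.26; adjusted p = 0.00252). Slc4a8, a sodium-driven chloride-bicarbonate exchanger, had 9.60, 9.92 and 10.19 in cLP Treg, against 8.51, 8.30 and 8.99 in MLN Treg (1.31 ± 0.27; adjusted p = 0.0103). Its other probes differed by 2.01, 0.85 and -0.37, and its call was lost with median scaling, in the deposited values and for the mean of its 4 probes. Slc9a9 and Slc4a8 both had groups that did not overlap. Slc20a1, the surface phosphate importer, averaged 9.65 ± 0.53 in cLP Treg, against 8.56 ± 0.49 in MLN Treg (SD, n = 3 each; 1.09 ± 0.36; limma, adjusted p = 0.0527). Slc12a8, of the cation-chloride family, fell by 2.67 (at least 5.35-fold; adjusted p = 0.000939), the anion exchanger Slc26a11 by 1.51 (at least 1.86-fold; adjusted p = 0.00378) and Slc26a6, an exchanger of chloride, bicarbonate and oxalate, by 1.04 (adjusted p = 0.0227); no cLP array detected Slc12a8 or Slc26a11, and the call of Slc26a6 was lost without any 1 MLN sample (adjusted p between 0.053 and 0.0854).

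Among carriers of choline and lipids all calls were falls, 3 of 6 detected, with a class median of -0.67. Among all genes 20.4% were lower and the median was -0.21, and a class of 6 genes is too small to set against these values. Slc27a3, 1 of the 3, was detected on MLN arrays alone and so had to be lower. Of the 3 carriers detected on all 6 arrays 2 fell. Slc44a2 (ILMN_2599719, chromosome 9), a choline carrier of the surface and of mitochondria, had 12.09, 12.42 and 12.39 in cLP Treg, against 13.81, 13.81 and 13.89 in MLN Treg. It was well detected on every array and 2.91-fold lower in cLP Treg (-1.54 ± 0.21; adjusted p = 0.00189). Slc44a1, its relative, fell by 1.16 (adjusted p = 0.0241, lost without any 1 array but cLP sample 3, between 0.055 and 0.0851) and Slc27a3, which activates fatty acids, by 1.85 (at least 2.33-fold; adjusted p = 0.000986). The carnitine importer Slc22a5 (ILMN_2834915, chromosome 11), which supplies fatty acid oxidation, had 8.41, 8.55 and 7.45 in cLP Treg, against 10.14, 10.56 and 9.93 in MLN Treg. It fell by 2.08 ± 0.34 (adjusted p = 0.00405), with a second probe at -2.04 and a further one at 0.57 (adjusted p = 0.278); the mean of the 3 was -1.18. The carnitine-acylcarnitine exchanger of mitochondria, Slc25a20, had means of 9.95 in cLP Treg, against 9.89 in MLN Treg and did not pass (adjusted p = 0.932).

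The classes of organic ions, vitamins, nucleosides and vesicle contents were small. Of 8 detected carriers of organic ions 2 were higher and 1 was lower in cLP Treg, of 8 of vitamins and cofactors 1 and 1, of 5 of vesicles and lysosomes 1 and 1, and of 4 of nucleosides 0 and 2. Among all genes 12.1% were higher and 20.4% lower, and classes of 4 to 8 genes are too small to set against these shares. Slco3a1, which carries prostaglandins, had 8.99, 9.0 and 8.43 in cLP Treg, against 6.96, 7.84 and 6.90 in MLN Treg, and was higher at both of its detected probes (1.57 ± 0.32, adjusted p = 0.00953, and 1.70). Slc52a3, which takes up riboflavin, had 9.72, 9.78 and 10.14 in cLP Treg, against 7.81, 8.42 and 8.19 in MLN Treg (1.74 ± 0.25; adjusted p = 0.00244). Slc19a1, the reduced folate carrier, had 7.96, 7.26 and 8.0 in cLP Treg, against 9.11, 9.05 and 8.69 in MLN Treg (-1.21 ± 0.28; adjusted p = 0.0145), and its call was lost without MLN sample 1 (adjusted p = 0.062) or 2 (adjusted p = 0.0564). The groups were apart in all 3, with the 2 rises and the 1 fall in different substrates.

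Slc17a9, which loads ATP into vesicles, had 5.25, 5.85 and 6.25 in cLP Treg, against 8.15, 8.31 and 8.03 in MLN Treg, where it was far brighter (-2.38 ± 0.29; adjusted p = 0.00128). A second probe, which no cLP array detected, was at least 2.59-fold lower. Slc29a3, a nucleoside carrier of lysosomes, had 7.41, 6.19 and 8.06 in cLP Treg, against 9.20, 8.84 and 8.77 in MLN Treg (-1.72 ± 0.45; adjusted p = 0.0236), a call lost without any 1 MLN sample (adjusted p between 0.063 and 0.083). Slc28a2b, a copy of the nucleoside carrier Slc28a2, fell by 1.01 (adjusted p = 0.0225), a call lost without MLN sample 1 or 3 (0.093 and 0.073), and since the copies are alike, which of them its probe reads is uncertain. The surface nucleoside carrier Slc29a1 had means of 10.00 in cLP Treg, against 9.96 in MLN Treg (adjusted p = 0.939), with the sign turned under 4 alternatives. One called member is no carrier: Slc2a4rg-ps, annotated as a pseudogene of a regulator of Slc2a4, had means of 8.36 in cLP Treg, against 10.70 in MLN Treg (-2.35 ± 0.32; adjusted p = 0.00199).

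Nucleotide sugar carriers, which feed glycosylation in the Golgi apparatus, were called in both directions, 2 higher and 3 lower of 16 detected among 28 on the array. These were 12.5% and 18.8% of the class, near the 12.1% and 20.4% of all genes, with a class median of -0.29. Slc35a5, among the falls, was detected on MLN arrays alone and so had to be lower. Slc35e2 did not pass at its reported probe (1.12), but its other detected probe was higher by 1.93 (limma over probes, adjusted p = 0.0043). With median scaling and in the deposited values the counts were 0 and 5. Slc35a5 (ILMN_2600043, chromosome 16) had 4.72, 4.65 and 4.93 in cLP Treg, against 7.22, 7.69 and 7.89 in MLN Treg. No cLP array detected it, it was at least 4.25-fold lower (-2.83 ± 0.25; adjusted p = 0.000371), and its 2 other probes, also detected on no cLP array, were at least 2.69-fold and 3.25-fold lower. Slc35c1 (ILMN_2675249, chromosome 2), which brings in GDP-fucose for fucosylated glycans such as selectin ligands, had 10.35, 9.98 and 9.84 in cLP Treg, against 11.33, 11.94 and 11.93 in MLN Treg. Both of its detected probes were lower in cLP Treg, by 1.68 ± 0.27 (adjusted p = 0.0035) and by 1.07, and its groups did not overlap. Slc35b4, a carrier of UDP-xylose and UDP-N-acetylglucosamine, fell by 1.08 (adjusted p = 0.00892). Slc35e1 rose by 1.00 (adjusted p = 0.0161) and Slc35d2, which carries UDP-N-acetylglucosamine, by 0.95 (adjusted p = 0.0335); the call of Slc35e1 was lost without MLN sample 1 or 2 (0.071 and 0.0506) and that of Slc35d2 without any 1 array but cLP sample 1 (between 0.0577 and 0.128).

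Carriers that are well studied in T cells formed a list of 30, and most of those detected did not pass the threshold. Of 27 on the array 20 were detected, with Slc3a2 and Slc38a2 higher in cLP Treg and Slc19a1, Slc39a10 and Slc44a2 lower, 25% called in all and a median of -0.2, beside 32.5% and -0.21 for all genes. Slc1a5, the glutamine carrier of activated T cells, was detected on 0 arrays, as were Slc16a1, Slc40a1, Slc35a1 and Slc27a2, while Slc7a1 was detected on 1 and Slc12a7 on 2. No detection means only that these probes did not stand above background. Slc38a1, a glutamine carrier related to Slc38a2, was close to background at 5.6 in cLP Treg and 5.77 in MLN Treg (adjusted p = 0.544), and so was Slc43a2, a carrier of large neutral amino acids, at 5.57 and 5.79 (adjusted p = 0.5).

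Several probes of a gene did not always tell the same story. Of the 164 members 39 had several detected probes, and in 24 of these all probes had the same sign; of 15 such members past the threshold 11 had all probes of 1 sign, and in 0 members did probes pass in opposite directions. The taurine carrier Slc6a6 was the plainest case. Its reported probe had 9.48, 11.13 and 10.96 in cLP Treg, against 11.98, 10.86 and 11.91 in MLN Treg, which overlap (adjusted p = 0.148). Its other detected probe had 9.47, 8.48 and 7.98 in cLP Treg, against 5.51, 5.44 and 5.45 in MLN Treg, not detected there and at least 8.45-fold higher in cLP Treg (adjusted p = 0.00102), and the mean of the 2 probes was higher by 1.06 (adjusted p = 0.0144).

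For the vitamin C carrier Slc23a2 the reported probe differed by -0.54 (adjusted p = 0.327) and the other by 1.52 (adjusted p = 0.0171). For Slc45a4 the 3 probes differed by -0.82, -4.77 and 0.70, the second of them with 4.98, 4.83 and 6.88 in cLP Treg, against 9.44, 11.06 and 10.50 in MLN Treg. In Slc6a6, Slc23a2, Slc11a2 and Slc38a10 the probe with the positive difference is annotated to a cDNA clone and the other to a RefSeq transcript. In Slc45a4 all 3 probes are annotated to a RefSeq transcript. The 1 detected probe of Slc1a1 is annotated to a cDNA clone. Whether probes that disagree read different transcripts of a gene was not tested.

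**Figure D5:**
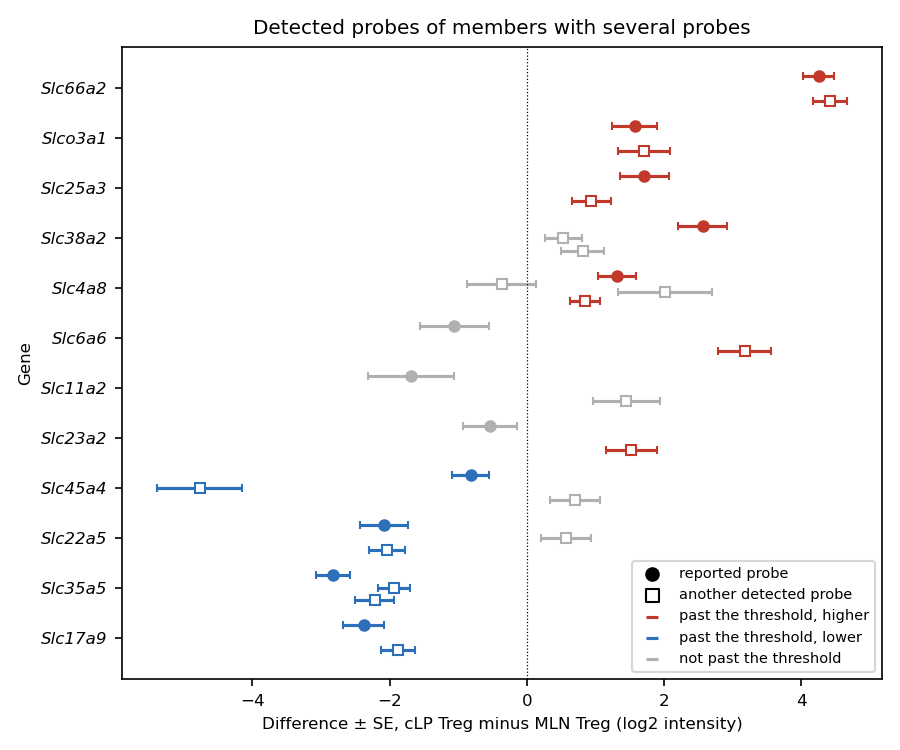
Difference in log2 intensity, cLP Treg minus MLN Treg, with bars of 1 standard error, of every detected probe of 12 members. Filled circles are the reported probes and open squares the others, coloured by the test over probes; the probes of Slc66a2, Slco3a1, Slc35a5 and Slc17a9 lie together, and those of Slc6a6, Slc11a2, Slc23a2 and Slc45a4 lie on both sides of 0.

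Transporters of other families were set beside the solute carriers. Of 48 ABC transporters on the array, pumps that burn ATP, 22 were detected, with 1 higher and 6 lower in cLP Treg and a median of -0.28; 31.8% were called, near the 32.5% of all genes, which also fell more often than they rose. The drug pump Abcb1b had means of 9.47 in cLP Treg, against 7.71 in MLN Treg (1.76 ± 0.31; adjusted p = 0.00494). The cholesterol pumps Abca1 and Abcg1 had means of 4.73 and 6.10 in cLP Treg, against 7.82 and 8.11 in MLN Treg; Abca1 was at least 4.95-fold lower (adjusted p = 0.000226) and Abcg1 fell by 2.01 (adjusted p = 0.00349). Of 20 carriers and partner proteins that bear other names 11 were detected, with 1 higher and 4 lower, 45.5% called beside 32.5% of all genes. Emb (embigin), the partner that brings monocarboxylate carriers to the surface, had 14.44, 14.73 and 14.23 in cLP Treg, against 11.86, 11.84 and 12.41 in MLN Treg, a rise of 2.43 ± 0.26 (adjusted p = 0.000778). The mitochondrial serine carrier Sfxn1 had 11.03, 11.53 and 10.89 in cLP Treg, against 12.48, 12.89 and 12.78 in MLN Treg (-1.57 ± 0.26; adjusted p = 0.0038), and the phosphate exporter Xpr1 fell by 1.5 (adjusted p = 0.00367). The groups did not overlap in Emb or Sfxn1.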

How the data were processed

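Total RNA of sorted Treg was amplified, labelled and hybridised to 6 bead arrays. The deposited table gave an intensity per probe, for which the submitters' processing notes name GenomeStudio 1.6.0, and beside it a detection fraction, headed as a p-value but rising with intensity. The authors' value table held log2 intensity minus each array's log2 75th percentile, found by setting both tables side by side. All 45281 probes of the 2 tables were joined by values within 0.1, each to 1 partner, and 34885 had 1 symbol, 18 several and 10378 none. No batch term was used, since nothing read here says which chip or scan an array came from.

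Intensities were background-corrected with normexp on the detection values (offset 16) and quantile normalised (limma 3.58.1, R 4.3.3). Probes detected on 3 of 6 arrays were kept, with the brightest probe for each gene. Differences, cLP minus MLN, were tested with limma (lmFit, eBayes), Benjamini-Hochberg adjusted over 9157 genes, or over 13538 named probes for single probes. The steps were tested on simulated data. Named were members well studied in T cells, those past the threshold with a 4-fold difference and the 2 widest in each direction in each class of at least 3; other members were named after their values were seen. Members, classes and lists were chosen with earlier results of these data known. The 15 alternatives are given with the closing limits.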

Additional observations from a re-analysis of the deposited data

How the results depend on the processing

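Of the 52 members past the threshold, 30 (13 higher, 17 lower in cLP Treg) passed in the same direction under every one of the 15 alternatives that tested them, and 22 were lost under at least 1. Median scaling gave 47 lower members and a members' median of -0.46, with Slc25a1 at -0.42, Slc29a1 at -0.45 and Slc2a1 at -0.06. The deposited log2 values gave a median of -0.24, with Slc25a1 at -0.29 and Slc29a1 at -0.34. The median was -0.11 without background correction and -0.14 with an offset of 50; with probes detected on all 6 arrays, which leaves 109 members, it was -0.14 and 16 members were lower. Setting the median difference of all genes to 0 made the members' median 0, Slc30a1 0.16 and Slc38a1 0.03, and averaging probes made Slc6a6 1.06. Leaving out 1 array gave 17 to 23 higher and 19 to 35 lower members and a median of -0.24 to -0.18. In the same runs the signs of 4 of the 56 genes named by rule turned, with differences of -0.16 to 0.29 for Slc25a1 (below 0 without cLP sample 3, -0.12, or MLN sample 3), -0.19 to 0.24 for Slc29a1 (below 0 without cLP sample 3, -0.11, or MLN sample 3), -0.2 to 0.14 for Slc30a1 (above 0 without cLP sample 2 or MLN sample 2) and -0.06 to 0.17 for Slc7a11 (below 0 without MLN sample 1); the cause was not tested. With the replicate number as a block 22 members were higher and 24 lower. Deviations from the group mean correlated at -0.165, -0.105 and -0.011 between same-numbered samples, and at -0.128 to 0.234 between the others. With 3 arrays per group these values cannot decide whether the numbers pair the samples, and the labels do not say. Signal over background limits what can be said of dim members.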
